A study of Mus musculus with 12 samples.

Results

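The adipokines Adipoq (adiponectin), C1qtnf12 (adipolin), Lep (leptin), Retn (resistin) and Agt (angiotensinogen) were followed across mice with more or less of the glucose transporter Glut4, the product of Slc2a4, in their fat. All probe sets that the platform annotation assigns to only 1 of these 5 genes were taken, which gave 5 of the 8251 genes named this way and 6 of the 12422 probe sets on the array, 2 of them for Lep. All 6 were bright enough to be tested, among 7454 tested probe sets in all. Perigonadal adipose tissue was profiled on 12 Affymetrix arrays, 1 per mouse, in 4 groups of 3 female mice aged 6 months and fed ad libitum. The Glut4 overexpressors carried a Glut4 transgene driven by the aP2 promoter on the FVB strain, and their controls were FVB littermates. The adipose Glut4 knockouts were on a C57B6/FVB/SV129 mix, and the mice serving as their controls carried the aP2-Cre transgene. aP2 is another name of Fabp4, a fatty acid binding protein of adipocytes, and its promoter is also known to be active in some macrophages. Each mutant was read only against its own control, because the deposited tables of the 2 lines ended at different lowest values, 21.9 and 22.27.

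Adipokines are proteins that fat releases into the blood. Adiponectin and adipolin both carry a C1q-like domain and raise insulin sensitivity, and adiponectin leaves the cell as disulfide-linked multimers assembled in the endoplasmic reticulum. Leptin reports the size of fat stores to the brain and lowers appetite, resistin opposes insulin action in the mouse, and angiotensinogen is the precursor from which renin and converting enzyme cut the blood-pressure peptide angiotensin.

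The last 100 bases before the start of 3 of these genes are shown as the control sequence nearest each transcript measured here; the Lep stretch holds a palindrome bound by C/EBP factors, whose genes were on the same arrays. They are RefSeq sequences of GRCm38.p6, read 5′ to 3′ on the gene's own strand: Adipoq at chr16:23146436-23146535 on the plus strand, Lep at chr6:29060121-29060220 on the plus strand and Agt at chr8:124569707-124569806 on the minus strand. Capitals mark CCAAT (or its complement ATTGG) in Adipoq, the C/EBP palindrome TTGCGCAA in Lep and TATAAA in Agt.
Adipoq: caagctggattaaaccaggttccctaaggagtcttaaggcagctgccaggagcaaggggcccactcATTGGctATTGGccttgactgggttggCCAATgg
Lep: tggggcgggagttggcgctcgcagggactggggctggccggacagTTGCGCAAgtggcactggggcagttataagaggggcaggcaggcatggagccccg
Agt: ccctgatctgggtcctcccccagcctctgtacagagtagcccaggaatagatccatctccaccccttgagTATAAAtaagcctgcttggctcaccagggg
The 250 bases before each start were searched on both strands. CCAAT was in 33.8% of 32851 such windows, TATAAA in 12.4% and TTGCGCAA in 0.164%. The palindrome began 55 bases before the Lep start, and TATAAA began 30 bases before the Agt start. The entry for Retn held none of the 3 motifs in that window. A match of letters is a description and not a measured binding site.

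Array medians lay between 185.8 and 219.4 intensity units, with overexpressor 1 and knockout control 3 the dimmest arrays of their lines. Slc2a4 itself read 378, 365 and 363 in the knockouts against 416, 514 and 614 in their controls, and 625, 1109.7 and 1042 in the overexpressors against 639, 583 and 1212 in theirs. The first pair of groups did not overlap and the second did, and neither difference passed limma with Benjamini-Hochberg adjustment (adjusted p = 1 and 0.930). All knockouts lay below their controls in 1.89% of all tested probe sets. Of 15 adipocyte marker genes, 11 were tested, and Fabp4 read between 3488 and 5152 on every array. The summed intensity of the adipocyte markers ran from 25268 to 34747 in the overexpressors and from 29691 to 35604 in their controls. In the other line it ran from 33274 to 36302 in the knockouts and from 28943 to 34005 in the controls. In bulk tissue, fewer cells of a type and less RNA per cell cannot be told apart.

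No adipokine probe set passed an adjusted p of 0.05 by limma in any comparison. In the overexpressors 0 of 6 passed, where 0.0805% of all tested probe sets did. In the knockouts 0 of 6 passed, where 0.121% did, and for the difference between the effects of the 2 mutants it was again 0 of 6, where 0.161% did. At an unadjusted p under 0.05, C1qtnf12 stood alone among the 6 in the overexpressors (lower), where 3.53% of all tested probe sets were lower at that level. In the knockouts 3 of the 6 did so, both Lep probe sets and C1qtnf12 (all higher), where 3.47% of all tested probe sets were higher at that level. For the difference between the effects it was C1qtnf12 alone, with a positive difference, as in 4.31% of all tested probe sets. The median log2 difference of the 5 genes, each by its brightest probe set, was -0.05 in the overexpressors and 0.06 in the knockouts, beside -0.07 and 0.04 over all tested probe sets. Of all tested probe sets, 70.3% were lower in the overexpressors and 63.0% higher in the knockouts. The p-values measure only the spread between these mice.

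**Figure D1:**
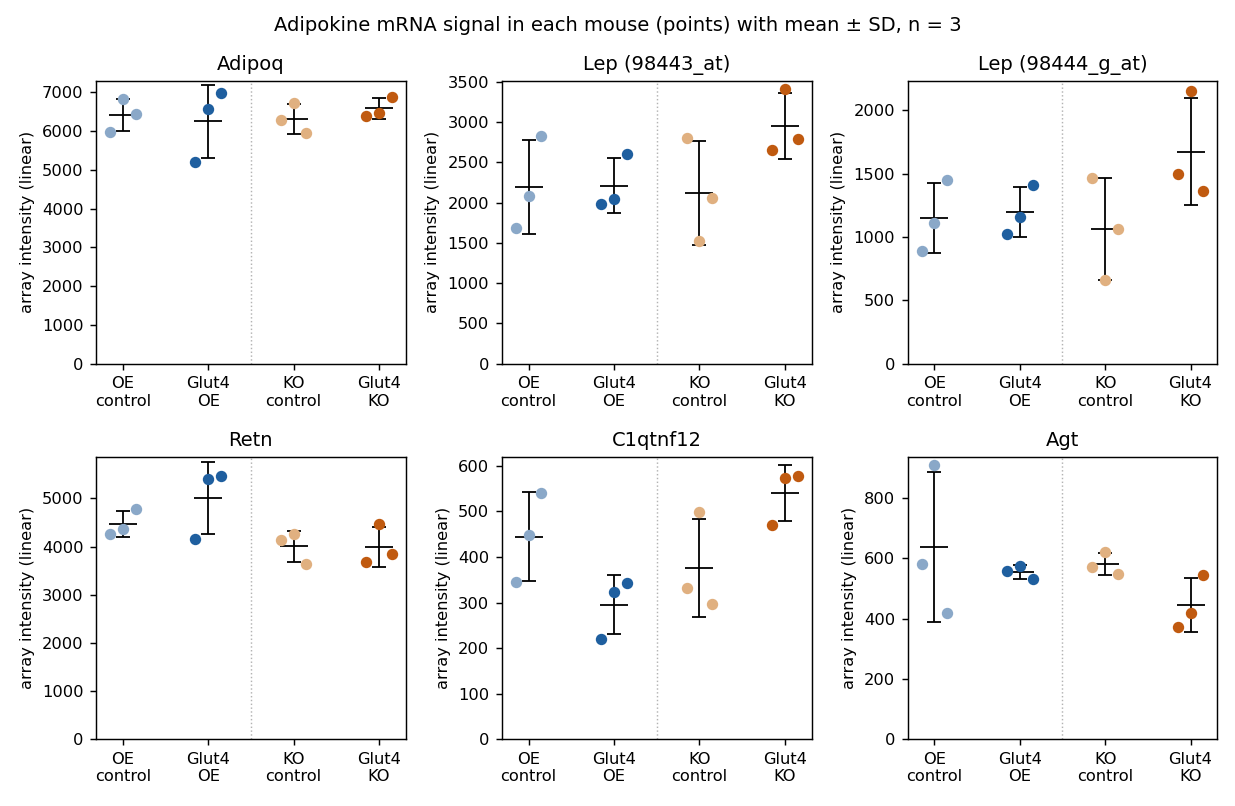
Intensity of each adipokine probe set (vertical axis, linear intensity units, starting at 0) in every mouse, with points for the 3 mice of a group and bars for their mean ± SD (OE, overexpressor; KO, knockout). C1qtnf12 is the probe set in which all 3 overexpressors lay below their controls, from 221 to 342 against 344 to 540.4, and Agt the one in which all 3 knockouts lay below theirs, from 372 to 543 against 549 to 620.2.

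Adipoq was among the brightest probe sets of the table, whose largest value was 8945. It read 5196, 6571 and 6986 in the overexpressors and 5974, 6818 and 6438 in their controls. In the knockouts it read 6390.45, 6473 and 6878, and in their controls 6278, 6715 and 5948. The groups overlapped in both lines, and the lowest value belonged to overexpressor 1, the dimmest array of its line. The mean was 6251 ± 937 (SD, n = 3) in the overexpressors against 6409.8 ± 422 in their controls, a log2 difference of -0.05 (95% interval -0.30 to 0.20, adjusted p = 0.969, limma). In the knockouts the mean was 6581 ± 261 against 6314 ± 385, a log2 difference of 0.06 (95% interval -0.19 to 0.31, adjusted p = 1, limma). Neither interval reached past 0.31 on the log2 scale, and the direction in the overexpressors turned when overexpressor 1 was left out (0.08) or arrays were scaled to equal medians (0.01).

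C1qtnf12, the second gene with a C1q-like domain, gave values in opposite directions in the mutants. It read 221, 324 and 342 in the overexpressors and 344, 449 and 540.4 in their controls. All 3 overexpressors lay below all 3 controls, as did 6.48% of all tested probe sets, with 342 in the highest overexpressor and 344 in the lowest control. The mean was 296 ± 65.3 (SD, n = 3) against 444 ± 98.1, and the log2 difference was -0.53 (SE 0.21, 95% interval -0.98 to -0.08). That gave an unadjusted p of 0.0238 and an adjusted p of 0.913 by limma, so the call was not made.

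In the knockouts C1qtnf12 read 470.1, 573 and 577, and in their controls 333, 498 and 296. Knockout control 2 lay above the lowest knockout, so these groups overlapped. The mean was 540.0 ± 60.5 (SD, n = 3) against 376 ± 108, and the log2 difference was 0.51 (SE 0.21, 95% interval 0.06 to 0.96, unadjusted p = 0.0297, adjusted p = 1, limma). The effect in the knockouts exceeded that in the overexpressors by 1.04 on the log2 scale (SE 0.29, 95% interval 0.41 to 1.68). With an unadjusted p of 0.00378 and an adjusted p of 0.513 by limma, this difference ranked 55 of 7454 tested probe sets. Among all tested probe sets, 20 (0.268%) were lower in the overexpressors and higher in the knockouts at an unadjusted p under 0.05 in both, and 2 (0.0268%) showed the reverse.

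Both C1qtnf12 differences were smaller when certain single arrays were left out. Without overexpressor 1 the first was -0.36 (unadjusted p = 0.114, limma), and without overexpressor control 3 it was -0.39 (unadjusted p = 0.103, limma). Without knockout control 3 the second was 0.37 (unadjusted p = 0.122, limma). Without knockout control 2 it was 0.71. Each kept its sign in every one of these fits, and the difference between the effects stayed between 0.87 and 1.25.

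The brown fat markers, 7 genes of which 5 were tested, summed to between 912 and 2830 in the overexpressors and between 1481 and 4277 in their controls. Overexpressor 1 had the lowest sum and the lowest C1qtnf12 of its line, and overexpressor control 3 the highest of both. In the other line the brown fat markers summed to between 3496 and 4979.8 in the knockouts and between 1266 and 4713 in their controls. There the orders differed: knockout control 1 had the lowest sum but knockout control 3 the lowest C1qtnf12, with a sum of 3525 that lay above the 3496 of knockout 2. Ucp1, the defining brown fat gene, ran from 50.4 in knockout control 1 to 1452 in knockout 1. None of these markers passed the test in either line (limma; 0 of 5 at an unadjusted p under 0.05), their sums overlapped between groups in both lines, and their part in the C1qtnf12 values was not tested. The adipocyte markers were higher in the knockouts for 11 of 11 tested genes, with a median of 0.20 and 1 at an unadjusted p under 0.05 (limma; 0 passed the adjusted threshold). Of all tested probe sets 63.0% were higher there. Leaving out single arrays gave 8 to 11 adipocyte markers higher, with a median of 0.13 to 0.29, and other settings gave 9 to 11. The part of the adipocyte markers in the knockout values of C1qtnf12, Lep and Pparg was not tested.

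Lep read by its brighter probe set gave 1982, 2043 and 2609 in the overexpressors and 1679, 2077 and 2823 in their controls. The values interleaved. The mean was 2211 ± 346 (SD, n = 3) against 2193 ± 581, and the log2 difference was 0.03 (95% interval -0.46 to 0.53, adjusted p = 0.988, limma). The dimmer probe set gave 0.07 (95% interval -0.51 to 0.65). Lep varied more from mouse to mouse than Adipoq, with a pooled within-group log2 SD of 0.32 beside 0.13, and its intervals were wider.

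In the knockouts the brighter Lep probe set read 2649, 3414 and 2791, and in their controls 2798, 1518 and 2052. Knockout control 1 lay above 2 of the 3 knockouts, while the other controls lay below all of them. The mean was 2951 ± 406 (SD, n = 3) against 2123 ± 643, and the log2 difference was 0.50 (SE 0.23, 95% interval 0.0089 to 1.00, unadjusted p = 0.0466, adjusted p = 1, limma). The dimmer probe set read 1500.2, 2155 and 1365 in the knockouts and 1463, 659 and 1066 in their controls, with a log2 difference of 0.68 (SE 0.27, 95% interval 0.09 to 1.26, unadjusted p = 0.0263, adjusted p = 1, limma). The probe sets target 1 transcript and share their RNA, so the second value is no independent measurement. Both values rested in part on knockout control 2: without it they were 0.29 and 0.38, and without knockout control 1 they were 0.72 and 0.94. The knockout effect minus the overexpressor effect was 0.47 by the brighter probe set (95% interval -0.23 to 1.17, adjusted p = 0.893, limma).

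Retn read 4148, 5406 and 5472 in the overexpressors and 4270.3, 4363 and 4776 in their controls. Overexpressors 2 and 3 lay above every control and overexpressor 1 below all of them. The mean was 5009 ± 746 (SD, n = 3) against 4470 ± 270, and the log2 difference was 0.15 (SE 0.13, 95% interval -0.12 to 0.43, adjusted p = 0.914, limma). Without overexpressor 1 it was 0.28 (unadjusted p = 0.0345, limma). In the knockouts Retn read 3679, 4464 and 3847, and in their controls 4126, 4251 and 3641. These groups interleaved, with means of 3996 ± 413 and 4006 ± 322 (SD, n = 3) and a log2 difference of -0.01 (95% interval -0.28 to 0.27, adjusted p = 1, limma).

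Agt read 557, 576 and 532 in the overexpressors and 583, 909 and 420.1 in their controls. The overexpressors lay close together inside the range of the controls. The mean was 555 ± 21.7 (SD, n = 3) against 637 ± 249, and the log2 difference was -0.12 (95% interval -0.59 to 0.34, adjusted p = 0.948, limma). It was 0.15 without overexpressor control 2 and -0.37 without overexpressor control 3, so its direction rested on overexpressor control 2 and its size on both. In the knockouts Agt read 372, 420.5 and 543, and in their controls 573, 620.2 and 549. Every knockout mouse read below every control mouse, as in 1.89% of all tested probe sets. The mean was 445 ± 88.4 (SD, n = 3) against 581 ± 36.2, and the log2 difference was -0.37 (SE 0.21, 95% interval -0.84 to 0.09, unadjusted p = 0.107, adjusted p = 1, limma). This SE pools the spread of all 4 groups. The log2 SD of Agt was 0.05 in the overexpressors and 0.53 in their controls, and 0.26 in the knockouts and 0.08 in theirs. Its unadjusted p ran from 0.032 to 0.30 leaving out single arrays, and from 0.040 to 0.14 in other settings (limma). The knockout effect minus the overexpressor effect was -0.25 (95% interval -0.90 to 0.41, adjusted p = 0.900, limma).

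**Figure D2:**
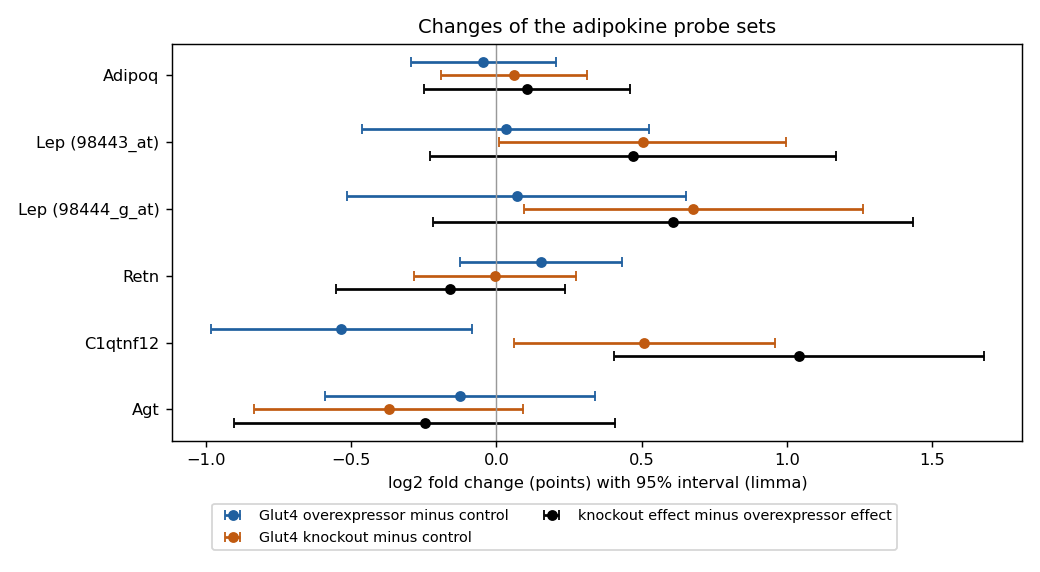
Log2 difference between each mutant and its own control for the 6 adipokine probe sets (blue and orange), and the knockout effect minus the overexpressor effect (black), on a horizontal log2 axis with 95% intervals from limma. C1qtnf12 sat at -0.53 in the overexpressors and 0.51 in the knockouts, both Lep probe sets lay above 0 in the knockouts, and no difference passed an adjusted p of 0.05.

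**Figure D3:**
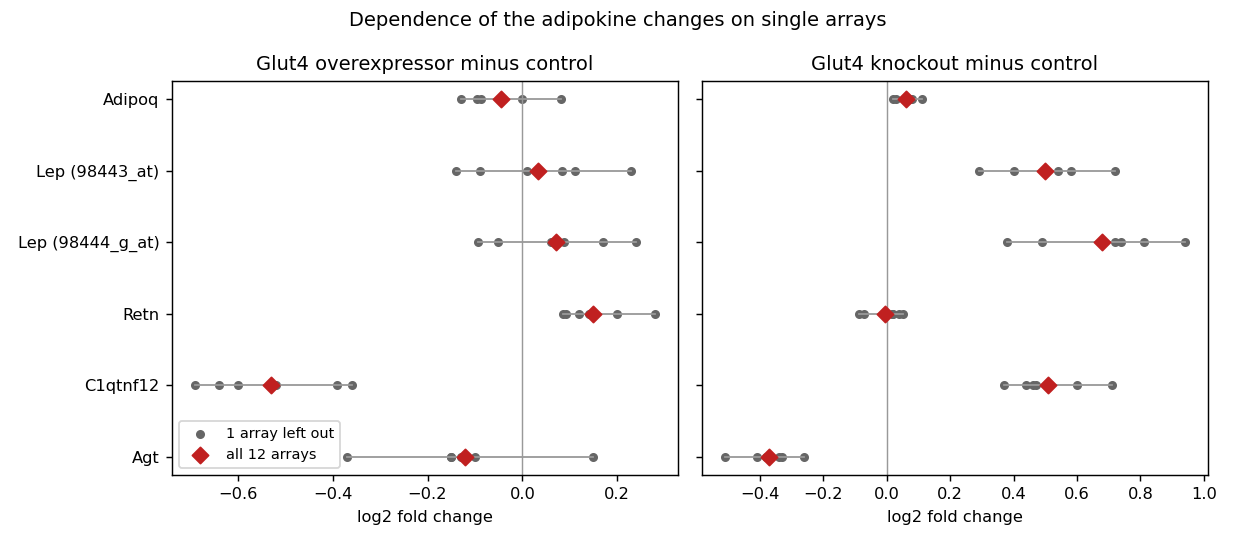
Log2 difference of each adipokine probe set (horizontal axis, log2 scale) with each array left out in turn (grey points) and with all 12 arrays (red diamonds). The C1qtnf12 values stayed on 1 side of 0 in each line, whereas the overexpressor values of Adipoq, Lep and Agt lay on both sides.

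The adipokines also differed in how far mice of 1 group lay apart. The pooled within-group log2 SD was 0.13 for Adipoq and 0.15 for Retn, and 25.9% and 36.5% of tested probe sets had a smaller one. It was 0.29 for C1qtnf12, 0.30 for Agt, and 0.32 and 0.38 for the Lep probe sets. Of all tested probe sets, between 85.2% and 95.6% varied less than these did.

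Deviations from the mean of each line's 6 arrays were compared between the adipokines over the 12 mice, as a description. The Lep probe sets had a Pearson r of 0.97 with each other. Adipoq and C1qtnf12 had an r of 0.69, or 0.55 with array medians subtracted, and Adipoq and Retn an r of 0.60, or 0.49. Lep and Agt ran in opposite directions, with an r of -0.52. The arrays share their overall brightness and groups, which enter all of these values.

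The genes most like each adipokine by the same measure were named as the 3 highest r. For C1qtnf12 they were 4931406C07Rik at 0.96, Ivd, an enzyme of leucine breakdown, at 0.96 and Gstz1, an enzyme of tyrosine breakdown, at 0.94. Ivd read 708 ± 134 (SD, n = 3) in the overexpressors against 1079 ± 117 in their controls, and 1102 ± 174 in the knockouts against 815 ± 165 in theirs. Group differences enter the r by which Ivd was picked, so its likeness to C1qtnf12 here is no separate result. For Adipoq the 3 genes were Smim26, Gnai1 and Pde4dip, each at 0.94. For Lep they were Camk2b at 0.92, Usp24 at 0.89 and Apbb2 at 0.89, and for Retn Hdac1 at 0.91, Enpep at 0.89 and Ugp2 at 0.88. For Agt they were Cnih2 at 0.93, Etfbkmt at 0.93 and Epb41l4aos at 0.89. The lowest r among these 15 genes with array medians subtracted was 0.83, for Enpep with Retn.

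**Figure D4:**
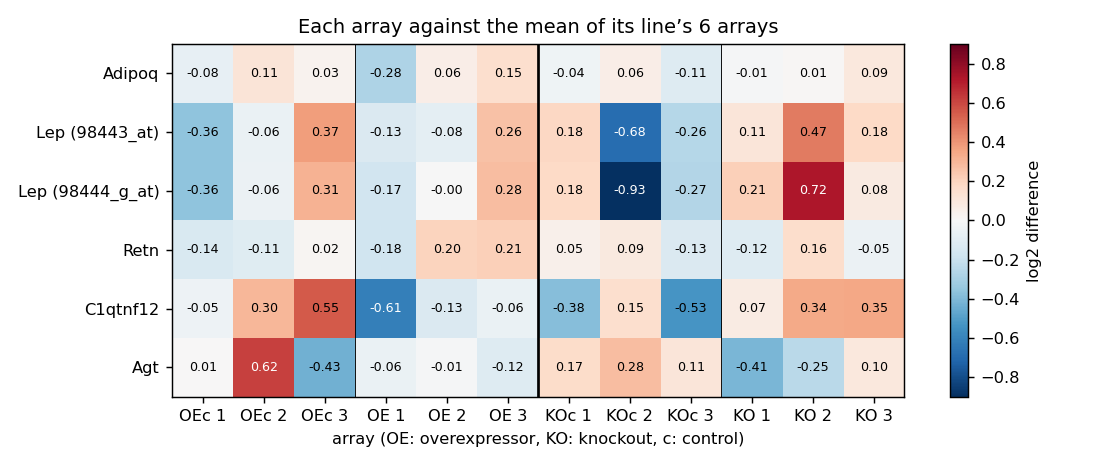
Heat map of the log2 intensity of each adipokine probe set (down the side) in each of the 12 mice (along the bottom), as the difference from the mean of its line's 6 arrays, with the colour scale in log2 units. Overexpressor 1 lay lowest of its line for Adipoq, C1qtnf12 and Retn.

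Of the 13 genes listed as adipokine receptors and their signal carriers, 6 were tested and none passed (limma; 0 also at an unadjusted p under 0.05 in both lines). Adipor2, an adiponectin receptor, read 2012, 2851 and 2934 in the overexpressors and 2072, 2919 and 2580.0 in their controls, a log2 difference of 0.04. In the knockouts it read 1429, 1633 and 2126, and in their controls 1578, 2060 and 1551, a difference of -0.01. The values interleaved in both lines. Adipor1, the other adiponectin receptor, and Cdh13, which binds adiponectin at the cell surface, were too dim to test, at 108 to 206 and 91.9 to 185 over the 12 arrays. Lepr, the leptin receptor, was also too dim, at 72.7 to 108 by its brighter probe set. Stat3, which carries the leptin signal, differed by -0.20 in the overexpressors (unadjusted p = 0.159, limma) and by 0.04 in the knockouts. Ptpn1, a phosphatase that dampens the leptin signal, differed by -0.23 (unadjusted p = 0.446, limma) and -0.15. Overexpressor control 1 read 1189 for Stat3, against 873 and 893 in the other controls of its line. For Ptpn1 it read 427 against 223 and 187, and without it the overexpressor difference of Ptpn1 was 0.084.

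Of 16 renin-angiotensin genes, 8 were tested and none passed (limma; 0 at an unadjusted p under 0.05 in both lines). In the overexpressors 2 of the 8 were higher and 6 lower, and in the knockouts 6 were higher and 2 lower, near the shares over all tested probe sets (70.3% lower and 63.0% higher). Enpep, an aminopeptidase that trims angiotensin II, read 817, 2057 and 1832 in the overexpressors against 998, 906 and 1244 in their controls (log2 difference 0.47, adjusted p = 0.913, limma). Overexpressors 2 and 3 lay above every control, but a second Enpep probe set gave -0.03. Ace, the converting enzyme, read 217, 258 and 131 in the knockouts against 208, 330.0 and 239 in their controls (log2 difference -0.33, adjusted p = 1, limma). A second Ace probe set, the brighter one in this line with means of 428 in the knockouts and 412 in their controls, gave 0.05.

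Genes that fold adiponectin in the endoplasmic reticulum or carry it out numbered 14 on the list, of which 11 were tested and none passed. In the overexpressors 3 were higher and 8 lower, with a median of -0.15, where 70.3% of all tested probe sets were lower. At an unadjusted p under 0.05 (limma) 2 were lower, where 3.53% of all tested probe sets were. The 2 were Gstk1, which promotes adiponectin multimer assembly, and Calr, a calcium-binding chaperone. Gstk1 read 219, 277 and 316 in the overexpressors against 413, 390.25 and 386 in their controls (log2 difference -0.51, adjusted p = 0.885, limma). All 3 overexpressors lay below, as in 6.48% of all tested probe sets. In the knockouts Gstk1 read 496, 562 and 772 against 420.1, 578 and 379.8, with an overlap (log2 difference 0.38, adjusted p = 1, limma). Over the list, 8 of 11 were higher in the knockouts, with a median of 0.08 and 0 at an unadjusted p under 0.05 (limma), where 63.0% of all tested probe sets were higher. With quantile normalization 6 of 11 were higher.

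Regulators linked to adipokine expression made a list of 16, with 13 tested and none passing. In the overexpressors 12 of 13 were lower and 1 higher, with a median of -0.30 beside -0.07 over all tested probe sets, and 3 were lower at an unadjusted p under 0.05 (limma). Of all tested probe sets 70.3% were lower, and 3.53% were lower at that level. With quantile normalization 8 of the 13 regulators were lower and 5 higher. Leaving out single arrays moved this median between -0.40 and -0.14, the last without overexpressor 1. The 3 genes were Cidec, a lipid droplet protein and no transcription factor, Nr1h3, a nuclear receptor for oxysterols, and Cebpd, a C/EBP factor of early fat cell formation. Cidec read 1139, 1728 and 1792 in the overexpressors against 2243, 2856 and 2834 in their controls, a log2 difference of -0.77 (adjusted p = 0.307, limma). Nr1h3 read 239.5, 363 and 361 against 501, 545 and 480.5, a difference of -0.63 (adjusted p = 0.854, limma). Cebpd read 213, 307 and 223 against 700.1, 491 and 375, a difference of -0.95 (adjusted p = 0.901, limma). In all 3 genes, which were picked for their small p, every overexpressor lay below every control, as in 6.48% of all tested probe sets. Cidec is also on the adipocyte marker list, of which 6 of 11 tested genes were lower in the overexpressors with a median of -0.02.

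In the knockouts 8 of the 13 regulators were higher and 5 lower, where 63.0% of all tested probe sets were higher. Their median was 0.16, and 0 passed an unadjusted p of 0.05 (limma). Leaving out single arrays moved this median between -0.10 (without knockout control 3) and 0.29. Other settings moved it between -0.12 and 0.17, with 5 to 7 regulators lower, so its sign was not stable. Pparg, the nuclear receptor that drives fat cell genes including Adipoq, read 655, 666 and 846 in the knockouts against 494, 639 and 582 in their controls. All 3 knockouts lay above, as in 5.62% of all tested probe sets, at a log2 difference of 0.32 (adjusted p = 1, limma). Its overexpressor difference was -0.07, and the groups overlapped. Cebpa and Cebpb, the other C/EBP factors on the list, differed by -0.09 and -0.32 in the overexpressors and by 0.20 and -0.10 in the knockouts. Neither reached an unadjusted p under 0.05 in either line (limma). The part of the C/EBP factors in the Lep values was not tested.

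Fibroblast and matrix markers read lower in the overexpressors for 10 of 10 genes, with a median of -0.42 and 6 at an unadjusted p under 0.05 (limma; 0 passed the adjusted threshold). Their summed intensity was 21367 to 26680.0 in the overexpressors and 24834 to 37976 in the controls. Macrophage markers had a median of -0.23 there, with 9 of 11 lower. Leaving out single arrays moved this median between -0.46 and -0.02, with 7 to 10 lower. Endothelial markers were lower for 8 of 8 genes (median -0.26, 2 at an unadjusted p under 0.05, limma) and mesothelial markers for 5 of 5 (median -0.24). Leaving out single arrays, the mesothelial median moved between -0.42 and -0.03, with 3 to 5 lower. Other settings gave 5 to 8 endothelial markers lower and 0 to 3 higher, with a median of -0.27 to -0.14. Overexpressor control 1 had the highest macrophage and mesothelial sums of its line, 9558 and 5448. Of all tested probe sets 70.3% were lower there, and 3.53% at an unadjusted p under 0.05 (limma). The part of the fibroblast, macrophage, endothelial and mesothelial markers in the regulator values was not tested.

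**Figure D5:**
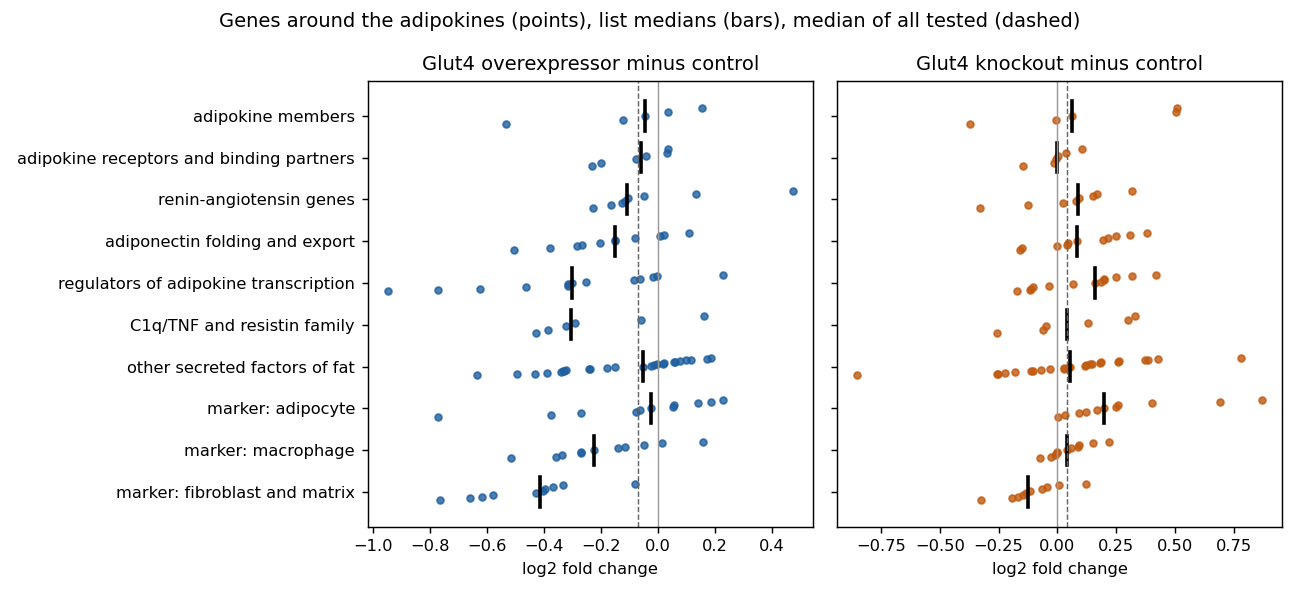
Log2 difference of every tested gene of each list (points; horizontal log2 axis) in each line, with the list's median as a bar and the median of all tested probe sets dashed. The regulators had a median of -0.30 in the overexpressors and 0.16 in the knockouts, while the receptors lay at -0.06 and near 0.

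Relatives of adiponectin, adipolin and resistin were listed as 17 further genes, of which 6 were tested and none passed. In the overexpressors 5 of the 6 were lower, with a median of -0.31 that leaving out single arrays moved between -0.50 (without overexpressor control 3) and -0.06 (without overexpressor control 1), and C1ql1 alone reached an unadjusted p under 0.05 (log2 difference -0.43, limma). Of all tested probe sets, 70.3% were lower in the overexpressors, 3.53% of all at that level. C1qtnf3, another relative in the C1q/TNF family, differed by 0.16 in the overexpressors and -0.26 in the knockouts (unadjusted p = 0.165 and 0.0358, limma). These signs are the opposite of those of C1qtnf12. The complement genes C1qa, C1qb and C1qc, made largely by macrophages, differed by -0.29, -0.39 and -0.32 in the overexpressors and by 0.13, 0.33 and 0.30 in the knockouts. For C1qb the overexpressor difference had an unadjusted p of 0.318 (limma), with 1624, 1075 and 592 in the controls of that line. The knockout value of C1qb was 0.075 without knockout control 3, 0.72 without knockout control 1 and -0.039 with array weights.

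Among 37 other secreted factors of fat, 25 were tested and none passed by limma. In the overexpressors 9 were higher and 16 lower, with 2 lower at an unadjusted p under 0.05, Rbp4 and Apoe. In the knockouts 16 were higher and 9 lower, with 4 higher and 1 lower at that level. Of all tested probe sets, 70.3% were lower in the overexpressors and 63.0% higher in the knockouts. At an unadjusted p under 0.05 (limma) the shares were 3.53% lower in the overexpressors and 3.47% higher in the knockouts. Rbp4, the retinol carrier that opposes insulin action, read 1580.5, 2270 and 2672 in the overexpressors against 2798, 2855 and 3407 in their controls (log2 difference -0.49, adjusted p = 0.901, limma). In the knockouts it read 3066, 3274 and 3362 against 2496, 2749 and 1998 (log2 difference 0.43, adjusted p = 1, limma). All 3 overexpressors lay below their controls, as in 6.48% of all tested probe sets, and all 3 knockouts above theirs, as in 5.62%. Rbp4 and C1qtnf12 thus differed in the same directions in both lines. Gpx3, a secreted glutathione peroxidase, read 1684, 1561 and 2346 in the knockouts against 3097, 3850 and 3121 (log2 difference -0.85, adjusted p = 0.630, limma). Orm1, an acute phase protein, read 1044, 1351 and 1593 in the knockouts against 830.5, 656 and 767 (log2 difference 0.78, adjusted p = 1, limma). Neither set of groups overlapped. All knockouts lay below their controls in 1.89% of all tested probe sets and above them in 5.62%. Rbp4, Gpx3 and Orm1 were named for their small p.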

How the data were processed

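The 12 arrays hold 1 linear intensity per probe set, deposited by the authors. Software, scaling and build were not given in the sources used here. RNA was column-extracted and biotin-labelled, per the labels' protocols. Intensities were tested as log2(intensity + 36.92), the constant being their 10th percentile, after the dimmest 40% (4968 probe sets) were left out. One group-means model over the 12 arrays was fitted with limma 3.58.1 in R 4.3.3 (8 residual degrees of freedom, trended eBayes), with a Benjamini-Hochberg threshold of 0.05. The log2 differences understate changes of dim probe sets. The number of arrays limits the precision, and no 2 arrays of a group were alike (smallest root mean square log2 difference 0.19). The platform annotation named 1 gene for 10833 probe sets, several for 396 and none for 1193, and 10817 symbols were updated by gene ID. Lists use each gene's brightest probe set by its mean over all arrays. Named are the adipokines, the direct receptors and enzymes, Slc2a4, and up to 3 genes of smallest p per list and comparison, with further list genes for family context. The members and lists were chosen with earlier results of these data known. The fit was tested on simulated data. Alternatives changed the constant, filter, scaling, arrays and model.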

Additional observations from a re-analysis of the deposited data

How the results depend on the processing

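No adipokine probe set passed an adjusted p of 0.05 under any of 23 other settings. Over all probe sets, 6 were called in the overexpressors, 9 in the knockouts and 12 for the difference between the effects. With array medians subtracted or quantile normalization the first count was 11, and with the line's own 6 arrays 1. Array weights, whose iteration did not converge, gave 419, 14 and 43, with lowest adipokine adjusted p of 0.0587 (limma, C1qtnf12 difference). The third count was 1 without the dim filter and 1 without the dimmest array of each line, a choice made after seeing the data. Leaving out single arrays gave 3 (without overexpressor control 2) to 21 (without overexpressor control 3) in the overexpressors, and 1 (without overexpressor 3 or knockout 3) to 13 for the difference, with 4, 5 and 6 without knockout 2, knockout control 2 and knockout control 3. With the replicate number as a block, 0 knockout calls and 1 difference call were left and C1qtnf12 stayed at -0.53 and 0.51. Same-numbered mice correlated between -0.35 and 0.02, and 0 of 6 mutants correlated best with the control of their own number, so numbers were not taken as pairs.

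The following values of single probe sets turned sign. Adipoq in the overexpressors was 0.013 with medians subtracted, 0.031 with quantiles, 0.082 without the dimmest arrays and -0.13 to 0.082 leaving out single arrays. In the knockouts it was -0.015 with quantiles, and its difference was -0.046 with quantiles, -0.063 without the dimmest arrays and -0.021 to 0.19 leaving out single arrays. With array weights Retn in the knockouts was 0.056, the Agt difference 0.067, and in the knockouts Cap1 -0.013, C1qb -0.039 and Fabp4 -0.018. With medians subtracted, Stat3 and Fabp4 in the knockouts were -0.0019 and -0.0066. With quantiles Stat3 there was -0.038, and in the overexpressors Socs3 was 0.029 and Fabp4 0.059. Without the dimmest arrays Stat3 and Lgals3 in the knockouts were -0.056 and -0.0019. Leaving out single arrays in the overexpressors gave -0.14 to 0.23 and -0.094 to 0.24 for the Lep probe sets, -0.37 to 0.15 for Agt (difference -0.52 to 0.0018), -0.44 to 0.084 for Ptpn1 and -0.10 to 0.21 for Adipor2. In the knockouts it gave -0.087 to 0.052 for Retn, -0.056 to 0.09 for Stat3, -0.46 to 0.028 for Ptpn1, -0.033 to 0.26 for Cap1, -0.0019 to 0.27 for Lgals3 and -0.16 to 0.12 for Adipor2. None of these values passed the test.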

Other observations

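Besides C1qtnf12, the probe sets with an unadjusted p under 0.05 (limma) in both lines, lower in the overexpressors and higher in the knockouts, included metabolic enzymes and a secreted protein, named here after their values were seen. Nnmt, which methylates nicotinamide, read 311 ± 43.2 (SD, n = 3) in the overexpressors against 856 ± 39.7 in their controls, and 1161 ± 144 in the knockouts against 768 ± 76.7. Oxct1, which activates ketone bodies for use as fuel, read 313 ± 58.0 against 701 ± 58.3, and 994 ± 272 against 706 ± 72.6. Serpina1c, a protease inhibitor best known from liver, read 75.0 ± 7.50 against 157 ± 77.5, and 883 ± 267 against 144 ± 46.0. Cdh13, left out as too dim to test, had means of 135 in the overexpressors and 160 in their controls. The Serpina1c means of that line lay below these, so its overexpressor difference is one between dim values. Its knockout control mean also lay below that of Cdh13, at 152, and only its knockout mean lay above, against 170. The dim filter used the mean over all 12 arrays, so Serpina1c was tested only through its high knockout values. Its place among the probe sets named here rests on that group. In Nnmt, Oxct1 and Serpina1c all overexpressors lay below their controls, as in 6.48% of all tested probe sets. All knockouts lay above theirs, as in 5.62%. These genes were picked for a small p in both lines, so this separation is no separate result. Rgs16, a regulator of G protein signalling, showed the reverse, at 331 ± 11.1 against 273 ± 17.0 in the overexpressors and 268 ± 14.7 against 314 ± 10.1 in the knockouts. The number of such probe sets expected in data without a group difference was not tested.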
